A study of Drosophila melanogaster with 2 samples.

Results

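The regions described here are the autosomal promoter peaks of the CrebA-eGFP fusion protein. They are the peaks of the optimal dm6 list that lie on chromosome arms 2L, 2R, 3L or 3R and whose summit is within 500 bp of an annotated transcript start of any gene class except transposable elements. The rule selected 773 peaks, which were 41.6% of the 1859 autosomal peaks of that list (Wilson 95% interval 39.4% to 43.8%) and 34.5% of its 2238 peaks in all. Of these, 185 were on 2L, 178 on 2R, 201 on 3L and 209 on 3R, and the promoter share of each arm's peaks lay between 40.3% and 42.7%. Distance was the only value with a threshold. The last peaks inside it lay 498, 498 and 500 bp from a start, with signals of 144.0, 189 and 82.1, and the first outside lay at 502, 506 and 508 bp, with signals of 107, 78.8 and 191.

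Chromatin came from whole wandering larvae of the third instar, with males and females pooled, and was sheared by sonication to 200 to 800 bp. All larvae were of the CrebA-MiMIC-GFP line, in which an eGFP exon placed in an intron of CrebA makes the gene encode a tagged protein, and an antibody to GFP was used for the immunoprecipitation. The study has 1 group with 2 biological replicates, labelled 4 and 2, and the samples analysed here include no second genotype or treatment. Signals come from all the tissues of the larva, so a weaker peak in many cells and a stronger peak in few cannot be told apart.

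CrebA is the fly member of the CREB3 family of bZIP transcription factors and is known as an activator of secretory pathway genes in the embryonic salivary gland. CREB3 proteins are known to bind sites built around ACGTG, and the longer site CACGTCA is found at many of their secretory targets. A promoter is the stretch around a transcript start where RNA polymerase assembles. Fly promoters are known to carry short elements such as the initiator at the start itself, the TATA box upstream of it, the DRE and the M1BP element of housekeeping genes, and repeats of GAGAG, which are bound by the GAGA factor, the product of Trl.

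The following windows show the sequence under the strongest promoter peaks and under strong peaks with several GAGAG elements. Each holds 50 bases to either side of the summit, is read 5′ to 3′ on the strand of the nearest start, holds no annotated exon, and comes from the Release 6 RefSeq assembly. Sequences are given for arms 2L, 3L and 3R alone, and strong peaks on the remaining arm are described without theirs. Capitals mark GAGAG and ACGTG in either orientation, so that CTCTC and CACGT are also capitalised. Peaks are numbered by signal rank among the 773.
lncRNA:CR31044 promoter peak 1, chr3R:29214322-29214422, plus strand: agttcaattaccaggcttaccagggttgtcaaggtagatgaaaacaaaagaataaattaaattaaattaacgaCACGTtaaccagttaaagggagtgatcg
asRNA:CR45396 promoter peak 4, chr3L:15142004-15142104, plus strand: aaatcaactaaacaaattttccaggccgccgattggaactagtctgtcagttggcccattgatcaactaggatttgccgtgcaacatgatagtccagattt
larp promoter peak 6, chr3R:28326545-28326645, minus strand: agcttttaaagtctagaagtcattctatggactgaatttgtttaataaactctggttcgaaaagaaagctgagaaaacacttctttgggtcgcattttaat
Syp promoter peak 7, chr3R:20778611-20778711, plus strand: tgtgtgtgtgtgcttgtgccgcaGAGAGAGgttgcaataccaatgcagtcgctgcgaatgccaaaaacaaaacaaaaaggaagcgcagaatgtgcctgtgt
puc promoter peak 8, chr3R:8106367-8106467, plus strand: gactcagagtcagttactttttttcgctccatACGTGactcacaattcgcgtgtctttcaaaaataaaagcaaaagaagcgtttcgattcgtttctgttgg
Cat promoter peak 11, chr3L:18822869-18822969, plus strand: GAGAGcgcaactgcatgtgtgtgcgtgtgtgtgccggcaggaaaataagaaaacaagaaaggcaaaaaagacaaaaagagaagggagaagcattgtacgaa
Rtnl1 promoter peak 34, chr2L:4997778-4997878, minus strand: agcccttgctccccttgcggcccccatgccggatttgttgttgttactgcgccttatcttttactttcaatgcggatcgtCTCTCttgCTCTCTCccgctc
sea promoter peak 45, chr3R:11567119-11567219, minus strand: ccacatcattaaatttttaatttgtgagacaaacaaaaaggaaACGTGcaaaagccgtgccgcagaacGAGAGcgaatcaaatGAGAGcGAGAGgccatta
Syp promoter peak 57, chr3R:20782800-20782900, plus strand: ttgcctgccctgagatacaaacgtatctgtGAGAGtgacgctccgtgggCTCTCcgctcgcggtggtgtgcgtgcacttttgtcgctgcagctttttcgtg
The first 6 windows belong to the strongest peaks on those 3 arms with an exon-free window, and neither marked element is common to all of them. A GAGAG element was present in those at Syp and Cat, an ACGTG element in those at lncRNA:CR31044 and puc, and neither in those at asRNA:CR45396 and larp. The window at Syp peak 7 holds overlapping GAGAG copies, while those at Rtnl1 and sea hold 3 separate or overlapping copies each.

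Short stretches around CACGTCA, with 11 bases to either side, are shown for the 9 holders on 2L, 3L and 3R, since this is the longer CREB3 site. Capitals mark the site, each stretch is turned so that the site reads CACGTCA, and the strand given is that of the site.
CG5885, chr2L:9918157-9918185, minus strand: tttgacgtttaCACGTCAcaattcgtcga
Sec24CD, chr2L:2236796-2236824, plus strand: aaacgaacttcCACGTCAgttccctaatt
Agpat3, chr3L:16385539-16385567, minus strand: taaatgttaacCACGTCAcgccaccccac
CaBP1, chr2L:16356693-16356721, plus strand: aaaaaagagtaCACGTCActgcgagtgcg
foxo, chr3R:14057561-14057589, minus strand: agcgatcacgtCACGTCAtcaattcatgc
Rm62, chr3R:6007724-6007752, minus strand: gaacgacagcgCACGTCAtaaaaagaatt
tai, chr2L:9176296-9176324, plus strand: agagcgcctggCACGTCAcacagctggtg
NUCB1, chr3L:17802229-17802257, minus strand: cgcaatttcgaCACGTCAgaatattcttg
bab2, chr3L:1177111-1177139, plus strand: tgtcgttgttgCACGTCActtgttgttgc
At foxo a second CACGTCA overlapped the first, so that the motif occurred at 2 positions 5 bases apart.

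The peak signal is the authors' value, in units whose scaling to sequencing depth is not stated, and depth is unknown. Signal over the promoter peaks ranged from 77.0 to 707, with a median of 112. The strongest was at lncRNA:CR31044 (chr3R:29214264-29214579), with a pooled signal of 707, 280 in replicate 4 and 431 in replicate 2. The second, at 618, lay 33 bp upstream of a start of Dp1, a KH-domain RNA-binding protein, and within reach of imd, the adaptor of an innate immune pathway (chr2R:18411803-18412185). It had 230 in replicate 4 and 397 in replicate 2. Both replicates thus placed these regions high, and replicate 2 gave the larger value at each.

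CG1888 followed at 552 (214 in replicate 4 and 358 in replicate 2), and asRNA:CR45396 at 540 (173 and 379). Tapdelta had 525 (193 and 322), and its product belongs to a complex that sits beside the protein channel of the endoplasmic reticulum (ER). The La-related protein gene larp had 518 (227 and 301), and Syp, which encodes an RNA-binding protein of the hnRNP family, had 494 (205 and 283). In each of these 5 the order of the replicates was the same, with replicate 2 above replicate 4.

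The JNK phosphatase gene puc had a signal of 491 (227 in replicate 4 and 276 in replicate 2), and lncRNA:CR30055 had 473 (202 and 282). A peak of 464 (152 and 304) was shared by Chro, which encodes a chromosomal protein, and Ssl1, a TFIIH subunit. Cat, the catalase gene, had 425 (181 and 244). These 4 peaks lay on both sides of their starts, from 71 bp upstream at puc to 315 bp downstream at Cat.

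The remaining 9 of the strongest 20 promoter peaks ranged from 353 to 412. They were CG32276 with gry, sisRNA:CR46357, Xbp1, CG5885 with CG4598, CG11309 with CG7632, EcR, PAN3, Sec61alpha and mtgo. EcR, which encodes the ecdysone receptor, had 378 (148 in replicate 4 and 229 in replicate 2). Sec61alpha, the channel subunit of the ER translocon, had 355 (149 and 220). Within the 20, the summit was upstream of the nearest start in 10, an ACGTG element lay within 100 bp of the summit in 12 and a GAGAG element in 10. Over all 773 promoter peaks these shares were 77.9%, 22.6% and 47.3%. In 4 groups of 193 or 194 promoter peaks from strongest to weakest, the share with ACGTG was 26.8%, 18.1%, 23.8% and 21.8%. The 3 strongest on each arm were CG5885, Sec61alpha and mtgo on 2L, Dp1, CG1888 and Tapdelta on 2R, asRNA:CR45396, Chro and Cat on 3L, and lncRNA:CR31044, larp and Syp on 3R.

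In the relaxed lists of the 2 replicates, 740 promoter peaks (95.7%) had a summit within 200 bp in both. Of the remaining 33, 30 had none in replicate 4, of which 5 still overlapped a replicate 4 interval, and 3 had none in replicate 2. These relaxed lists held 29999 peaks each, and so a match says little about strength. The median signal of the matched peaks was 49.2 in replicate 4 and 65.4 in replicate 2, and replicate 2 was higher at 569 peaks. The ratio of replicate 2 to replicate 4 had a median of 1.38 (quartiles 1.02 and 1.75). Pooled signals were close to the sum of the replicates, with a median ratio of 1.00. Across the 740 peaks, Spearman's rho between the replicates was 0.435, given as a description. The peaks share both libraries, and the list keeps only those whose pooled signal is high, which limits the range of the values.

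**Figure D1:**
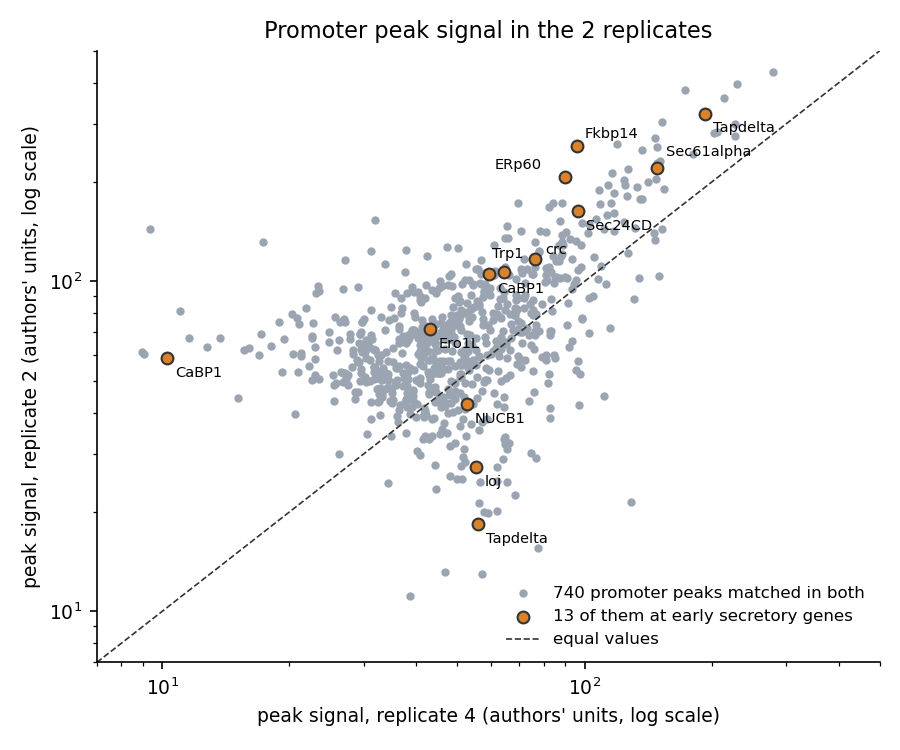
Signal of each promoter peak in replicate 4 (horizontal axis) and replicate 2 (vertical axis), both on log scales in the authors' units, with peaks at genes of the early secretory lists in orange and the line of equal values dashed. Of the 740 points, 13 are at early secretory genes, and the strongest of those, at Tapdelta, has 193 in replicate 4 and 322 in replicate 2.

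The plot of replicate signals shows how the peaks spread around the line of equal values. Most points are above that line, including the 19 matched peaks of the strongest 20, and the widest scatter is among peaks with low values in either replicate.

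A stricter match used only the 2238 strongest peaks of each replicate, as many as the optimal list holds. By this measure 443 promoter peaks (57.3%) were matched in both replicates, against 434 of 760 intronic peaks (57.1%) and 126 of 266 intergenic peaks (47.4%). Promoter and intronic peaks were not distinguished (odds ratio 1.01, 95% interval 0.819 to 1.24, two-sided Fisher's exact test, adjusted p = 0.959). Promoter peaks were matched more often than intergenic ones (odds ratio 1.49, interval 1.12 to 1.99, same exact test, adjusted p = 0.0214). That call was lost with a promoter limit of 250 bp (adjusted p = 0.0631) or 1000 bp (0.118), with matches within 100 bp (0.177), with replicate lists of double length (0.520), and with only the strongest 1119 optimal peaks (0.917) in the same exact test, with odds ratios between 1.20 and 1.47. The share of peaks above the median signal was 52.3% at promoters, 49.6% in introns and 45.1% between genes, and neither difference passed (odds ratios 1.11 and 1.33, same exact test, adjusted p = 0.409 and 0.0934). The stricter match followed pooled signal closely, and so it is not a measure separate from signal. In 4 groups of 193 or 194 promoter peaks from strongest to weakest, 92.3%, 88.1%, 43.5% and 5.18% were matched.

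A few strong peaks had no matching summit in 1 of the replicate lists. Xbp1, a bZIP factor of the unfolded protein response, had a pooled signal of 395 and 278 in replicate 2, but no replicate 4 summit within 200 bp. The nearest replicate 4 summit was 1244 bp away. The pooled value exceeded that of replicate 2 by 116, so the missing entry in the replicate 4 list need not stand for a signal of 0. The scaling of the values is not stated, so the excess is not a measured replicate 4 signal. No replicate 4 summit lay within reach either at tRNA:Tyr-GTA-1-8 with CG8036 (pooled 311, replicate 2 182), at CG8306 (217 and 125) and at lncRNA:CR46075 with jing, a zinc finger factor gene (209 and 106). There the pooled value exceeded that of replicate 2 by 129, 91.3 and 103. A peak at sea, with 183, had 72.9 in replicate 4, while the nearest replicate 2 summit was 215 bp away with 116.

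The largest differences of rank were between summits matched within 200 bp, and the matched value need not be the whole signal of that replicate at the promoter. CG10602 had a pooled signal of 228, with 9.34 in replicate 4 (rank 27710) and 144 in replicate 2 (rank 193), and its replicate 4 summit was 164 bp away. The pooled value there exceeded that of replicate 2 by 83.9. At CAP the values were 8.96 in replicate 4 and 60.9 in replicate 2, at atos 9.05 and 60.3, and at the second CaBP1 peak 10.2 and 58.5. At ftz-f1, which encodes a nuclear receptor of the ecdysone cascade, the matched summits had 38.6 in replicate 4 and 11.1 in replicate 2, the latter 58 bp away, while the pooled 88.0 exceeded the replicate 4 value by 49.4.

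Summits lay mainly upstream of the starts. The median position was 107 bp upstream of the nearest start (quartiles 195 and 21 bp upstream), and 602 of the 773 summits (77.9%, interval 74.8% to 80.7%) were on the upstream side. The first 200 bp upstream held 424 of them (54.9%). For comparison, 4029 weaker autosomal promoter peaks were taken from the pooled relaxed list, each more than 200 bp from every optimal summit and with a signal of at most 76.8. That list is labelled as peaks and background, so these weaker peaks, with a median signal of 26.4, may include background regions. Their median position was 80 bp upstream, 63.7% were on the upstream side, and 33.6% lay in the first 200 bp upstream. Distances are bounded by the 500 bp rule in both sets, and no test was made.

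**Figure D2:**
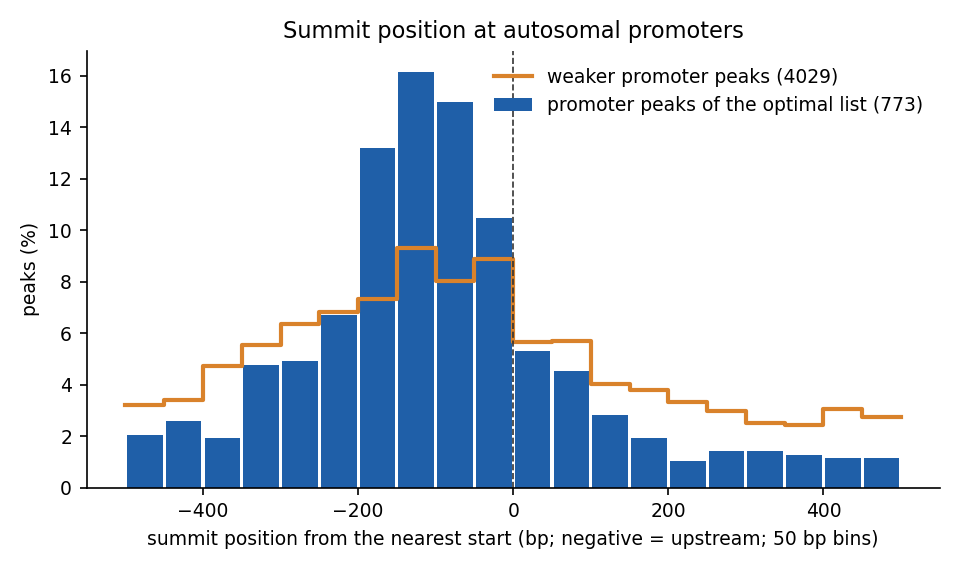
Share of peaks (percent, vertical axis) by position of the summit from the nearest start in 50 bp bins (horizontal axis, negative values upstream), as bars for the 773 promoter peaks and as a line for the 4029 weaker promoter peaks. The highest bar, 100 to 150 bp upstream, holds 125 peaks or 16.2%, against 9.33% of the weaker ones.

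The plot of summit positions shows a single broad maximum before the start and a drop just after it. In the first 50 bp downstream the share was 5.30%, against 10.5% in the last 50 bp upstream.

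Many of the starts were alternative ones. The nearest start was the 5′ end of its gene at 496 peaks (64.2%), against 76.6% of the weaker promoter peaks, and any gene's 5′ end was within 500 bp at 543 (70.2%), against 80.7%. Starts on both strands were within reach at 88 peaks (11.4%, weaker peaks 7.20%), and several genes at 124 (16.0%, weaker 11.4%). Almost all peaks, 677 of 773, were 404 bp wide, while the 20 strongest were 203 to 467 bp wide.

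By gene class, the nearest start belonged to a protein-coding gene at 645 peaks, to an ncRNA gene at 83 and to a tRNA gene at 41. Median signals were 114, 113 and 99.3. The summit was a median of 116 bp upstream of protein-coding starts, 77 bp upstream of ncRNA starts and 40 bp upstream of tRNA starts. A GAGAG element was near 51.2% of the first, 30.1% of the second and 26.8% of the third.

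Of the 11669 autosomal protein-coding genes, 612 had a promoter peak, a share of 5.24%. The share rose with the number of distinct starts, from 2.95% of genes with 1 start to 7.70% with 2, 16.2% with 3 and 31.4% with 4 or more. Genes with a promoter peak had a mean of 2.30 starts and a median length of 8469 bp, against 1.38 and 2088 bp for all. More starts give more chances to meet the 500 bp rule, but the parts of starts and of gene length in these shares were not tested. Of the 612 genes, 87 (14.2%) had 2 or more promoter peaks and 21 had 3 or more. These are counts of peaks and not of separate promoters, since 12 of the 87 genes have a single annotated start and 14 have more peaks than starts. The most, 4, were at cnc, px, bbg, mtd and RapGAP1, of which cnc encodes a bZIP factor of the oxidative stress response and px a wing vein regulator.

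Genes for tRNAs, the adaptors of translation that RNA polymerase III transcribes from internal promoters, stood out in the shares. A promoter peak lay at 68 of the 266 autosomal tRNA genes (25.6%, interval 20.7% to 31.1%), against 103 of 2748 ncRNA genes (3.75%) and 0 of 96 rRNA genes (interval up to 3.85%). The 68 genes shared 43 peaks, which include 2 whose nearest start is of another class, and of which 25 reached several tRNA genes, and so they are not independent. Glutamate tRNAs contributed 10 of their 19 genes, alanine tRNAs 7 of 17 and glutamine tRNAs 5 of 10, while none of the 20 glycine tRNA genes had a peak. The strongest after tRNA:Tyr-GTA-1-8 were at tRNA:Gln-TTG-1-3, with a signal of 296 (108 in replicate 4 and 189 in replicate 2), and at tRNA:Ala-TGC-2-1, with 267 (117 and 161). tRNA genes occur in near-identical copies, as do rRNA genes, and no source used here says whether multiply mapped reads were kept. The 0 of 96 is therefore not evidence of absent binding at rRNA genes.

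Motifs were sought on both strands within 100 bp of each summit and in equally wide windows centred 1000 bp to either side. GAGAG was at 366 promoter summits (47.3%, interval 43.9% to 50.9%), against 22.8% of the flanks, a ratio of 2.08 (exact McNemar test, larger p of both sides, adjusted over 14 motifs, p = 1.18e-22). TCAGT, the initiator, was at 38.2% against 29.6% (same exact test, adjusted p = 0.0093), and ACGTG at 22.6% against 16.6% (adjusted p = 0.021). The summits lie close to starts by rule and the flanks do not, which bears on any element tied to the start. TCAGT and ACGTG missed the threshold in windows of 50 bp to either side (exact McNemar test, adjusted p = 0.255 and 0.144) and among the strongest 1119 optimal peaks (0.119 and 0.265), and ACGTG also did so in the strongest peaks of either replicate alone (0.0906 without replicate 2 and 0.272 without replicate 4), with flanks 500 bp away (0.228) and, in a check chosen after seeing the data, at peaks whose nearest start is protein-coding (0.081).

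The other 11 motifs did not pass. They were the TATA box TATAAA, the DRE written as TATCGATA, the M1BP element GGTCACACT, the Zelda site CAGGTAG, the forkhead site TGTTTAC and the site of GATA factors, AGATAA. The others were the longer CREB3 sites CACGTCA and its extension CCACGTCA, the CRE written as TGACGTCA, the E-box spelled CACGTG, and the AP-1 site spelled TGANTCA. Both longer CREB3 sites contain ACGTG on 1 of the strands and the E-box contains it on both, so their holders also count for ACGTG. The extended CREB3 site contains the shorter one. Of the 175 holders of ACGTG, 137 had neither CACGTCA nor CACGTG.

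**Figure D3:**
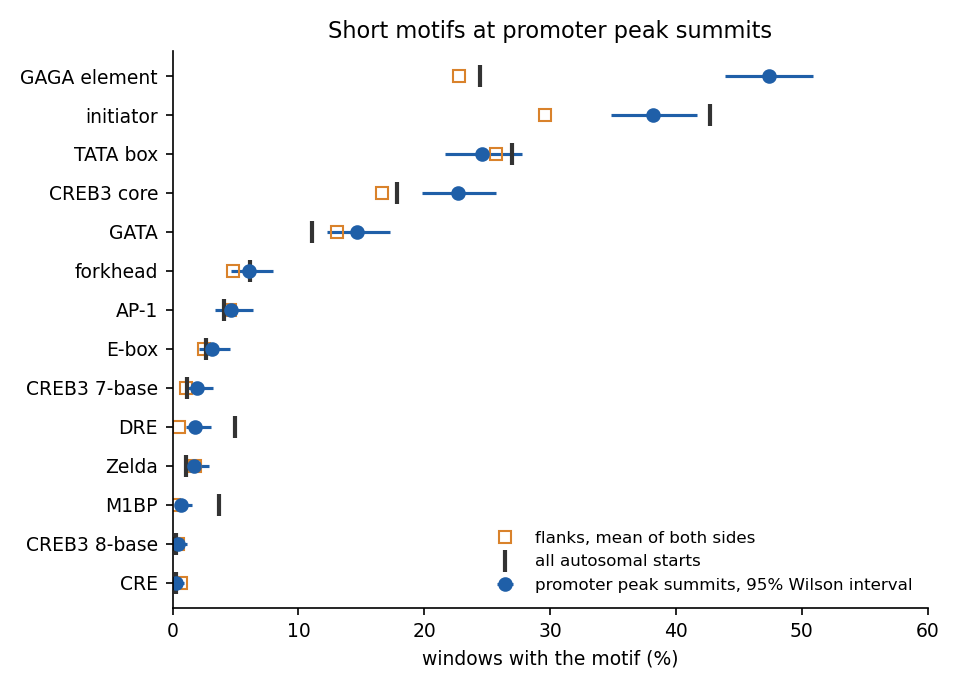
Share of 201 bp windows that hold each of 14 motifs (percent, horizontal axis, motifs named by the factor or element on the vertical axis), as circles with Wilson 95% intervals for the 773 promoter peak summits, squares for the mean of the flanks and bars for all 19491 autosomal starts. The GAGA element is at 47.3% of summits, 22.8% of flanks and 24.4% of starts, while the DRE is at 1.81%, 0.517% and 4.93%.

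Windows around all 19491 autosomal starts serve as a further background, set beside those around the 738 starts nearest to the promoter peaks. GAGAG was near 24.4% of all starts and 46.5% of these starts, and TCAGT near 42.7% and 51.9%. The housekeeping elements went the other way, with the DRE near 4.93% of all starts and 2.17% of these, and the M1BP element near 3.68% and 1.90%. TATAAA was near 27.0% and 20.5%. These shares are descriptions with no test.

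The share with GAGAG was tested against that in other peaks. It was 34.7% of the 760 intronic peaks (odds ratio for promoter peaks 1.69, two-sided Fisher's exact test adjusted over 42 comparisons, p = 1.27e-05). It was 30.1% of the 266 intergenic peaks (odds ratio 2.09, same exact test, adjusted p = 1.31e-05) and 28.1% of the weaker promoter peaks (odds ratio 2.30, adjusted p = 2.63e-23). Among the strongest 1119 optimal peaks the difference from intronic peaks missed the threshold (odds ratio 1.45, exact test, adjusted p = 0.0805). The median GC content of the windows was 41.8% at promoter peaks, 39.6% at intronic, 38.8% at intergenic and 39.3% at weaker promoter peaks, and its part in these differences was not tested.

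Of the 42 comparisons 8 passed. The 5 not given above, for other motifs, had larger adjusted p-values but not always smaller odds ratios. ACGTG was more frequent at promoter peaks than at intergenic peaks (13.9%, odds ratio 1.81, Fisher's exact test, adjusted p = 0.0131) and at weaker promoter peaks (15.8%, odds ratio 1.56, adjusted p = 8.33e-05). TCAGT was more frequent than at intronic peaks (30.7%, odds ratio 1.40, same exact test, adjusted p = 0.0131), and TATAAA less frequent than at weaker promoter peaks (24.6% against 30.7%, odds ratio 0.735, adjusted p = 0.0049). CACGTCA was at 15 promoter peaks against 3 intronic ones (odds ratio 4.99, interval 1.40 to 27.0, same exact test, adjusted p = 0.038), and this call was lost with windows of 50 bp to either side (odds ratio 3.46, adjusted p = 0.517) and, with fewer peaks, among the strongest 1119 optimal peaks (odds ratio 6.15, adjusted p = 0.0631). With windows of 50 bp to either side 4 of the 42 comparisons passed, as did 4 among the strongest 1119 peaks. In the same exact test, the calls also lost in these settings were ACGTG against intergenic peaks (adjusted p = 0.685 and 0.175), TCAGT against intronic peaks (0.663 and 0.0909) and TATAAA against weaker promoter peaks (0.114 and 0.118).

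**Figure D4:**
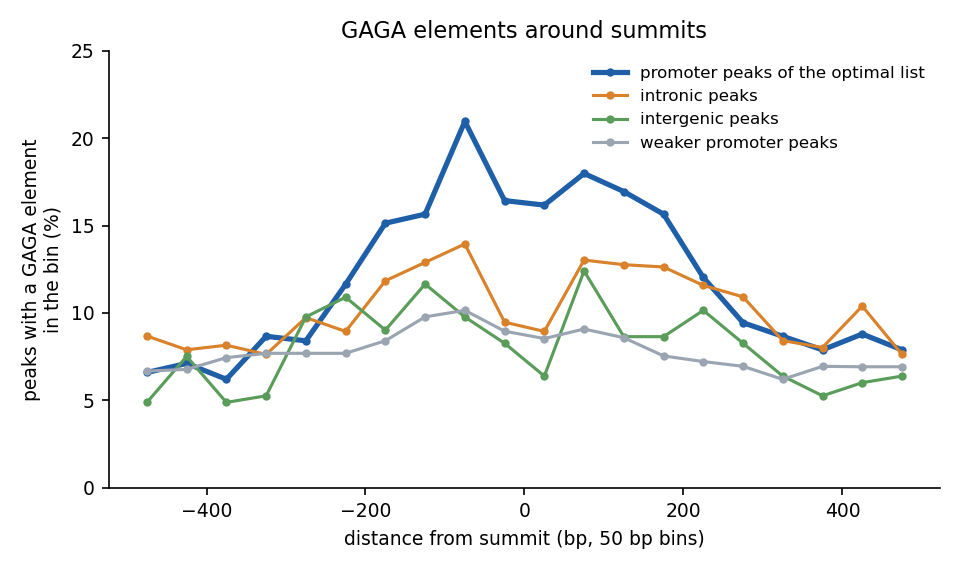
Share of peaks with a GAGA element in each 50 bp bin (percent, vertical axis) by distance from the summit along the assembly (horizontal axis, bp), as lines for the promoter peaks, intronic peaks, intergenic peaks and weaker promoter peaks. The promoter line reaches 21.0% in the bin 100 to 50 bp to the left of the summit and 6.60% in the outermost bin on that side.

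The plot of GAGA elements shows that the excess at promoter peaks spans about 200 bp to either side of the summit and that the share dips at the summit itself, to 16.4% and 16.2% in the central bins. The dip is not particular to promoter peaks. In the same bins the shares fell to 9.47% and 8.95% at intronic, 8.27% and 6.39% at intergenic, and 8.96% and 8.54% at weaker promoter peaks. Copies were often repeated, with 223 promoter peaks holding 2 or more, 59 holding 5 or more and at most 15 in a window. Overlapping copies were each counted, so that a run such as GAGAGAG counts as 2. These are therefore not numbers of separate elements. Holders had a median signal of 119 and 63.7% were matched in the strongest peaks of both replicates, against 107 and 51.6% of the others. That match follows signal closely, so the matched shares are not a separate observation. In 4 groups of 193 or 194 peaks from strongest to weakest, the share with GAGAG was 53.6%, 51.3%, 43.5% and 40.9%. Of the 1150 words of 6 bases found at enough summits to rank, the leading ones by ratio to the flanks were AGAGAG (3.23), GAGAGC (3.08) and CTCTCA (3.04), all of which overlap the GAGAG element.

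CACGTCA was rare and lay mostly at strong peaks. Its 15 holders were 1.94% of the promoter peaks, against 1.10% of the flanks and 1.13% of all starts, and the ratio to the flanks did not pass (exact McNemar test, adjusted p = 0.802). Of the 15, 13 were among the strongest 387 promoter peaks and 2 among the other 386, with 7, 6, 1 and 1 in the same 4 groups. By signal they were at Tapdelta, Xbp1, CG5885 with CG4598, Sec24CD, Agpat3, Pepck2, CaBP1, foxo, wbl, Rm62, tai, Treh, Cyp4ad1, NUCB1 and bab2.

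Among the 14 promoter peaks at genes of the 4 early secretory lists (ER entry, ER folding and glycosylation, ER to Golgi vesicles, and the unfolded protein response with ER degradation), 5 held CACGTCA (35.7%) and 10 held ACGTG, while 4 held GAGAG. Among the other 759, 10 held CACGTCA (1.32%). Of all 773 promoter peaks, 22.6% held ACGTG and 47.3% held GAGAG. The 5 early secretory holders of CACGTCA are among the 10 counted for ACGTG, since CACGTCA contains it. The 5 were at Tapdelta, Xbp1, Sec24CD (a cargo-binding coat subunit of ER vesicles), CaBP1 (a protein disulfide isomerase) and NUCB1 (a calcium-binding protein of the Golgi). Their 6 sites all lay downstream of the nearest start, at 15 bp in Tapdelta, 29 and 62 bp in Xbp1, 34 bp in Sec24CD, 28 bp in CaBP1 and 36 bp in NUCB1. Of the 11 sites in the other 10 holders, which ranged from 344 bp upstream to 256 bp downstream, the one at CG5885, 5 bp downstream, was the only one in the first 70 bp after the start. The site was on the strand of the gene in 3 of the 6 and in 6 of the 11. This arrangement was noticed after the values were seen, and no test was made.

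In the 4 early secretory lists, 12 of the 66 autosomal genes had a promoter peak (18.2%, against 5.24% of all coding genes). For ER entry 3 of 16 autosomal genes had a promoter peak (Tapdelta 525, Sec61alpha 355 and Trp1, a translocon partner, 171), and among those without were Sec61beta, Sec63 and Spase12. For ER folding and glycosylation 5 of 16 had a peak, led by Fkbp14, a prolyl isomerase, with 350 (95.7 in replicate 4 and 257 in replicate 2), ERp60, a disulfide isomerase, with 289 (90.0 and 207) at a peak shared with eEF1alpha1, and CaBP1 with 163 (59.4 and 105). For ER to Golgi vesicles 2 of 22 had a peak, Sec24CD with 263 (96.4 and 163) and loj, a cargo receptor, with 79.9 (55.3 and 27.4). For the unfolded protein response 2 of 12 had a peak, Xbp1 and crc, the fly ATF4, with 199 (76.2 and 117). The 14 peaks had a median signal of 185, against 112 for all 773, and they ranged from 525 at Tapdelta to 79.9 at loj. Counted on the strongest 2238 peaks of replicate 4 alone, the unfolded protein response list had 1 gene with a peak, and on those of replicate 2 alone 4, while ER entry had 5 in replicate 2 alone. At the strong peaks matched in both, replicate 2 exceeded replicate 4, and at NUCB1, loj and the second Tapdelta peak it did not. The second peaks at Tapdelta and at CaBP1 each overlap the first peak of the same gene. The second Tapdelta peak had 117 pooled, 55.8 in replicate 4 and 18.4 in replicate 2, so the matched values need not be the whole signal there.

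For the ecdysone response, the hormone cascade that starts metamorphosis, 7 of 13 genes had a promoter peak, with a median signal of 147. They were led by EcR (378), Eip74EF, an ETS factor gene, with 282 (147 in replicate 4 and 134 in replicate 2), and Kr-h1, a zinc finger factor gene of the juvenile hormone response, with 191 (93.4 and 94.8). The nuclear receptor gene Eip75B had 3 promoter peaks, the strongest with 147. The listed genes have a mean of 3.23 starts, against 1.38 for all. More starts give more chances of a peak, but the part of this in the share was not tested. The mean was also raised for RNA-binding proteins (3.50), bZIP factors (2.47), translation factors (2.19), stress kinase and growth signalling (2.13) and chromatin genes (2.05). Immune genes had 2.00, patterning factors 1.85, the unfolded protein response 1.83, heat shock 1.78 and cytoskeleton genes 1.60. Lower means were 1.36 for ER to Golgi vesicles, 1.33 for salivary gland genes, 1.31 for ER folding and 1.19 for ER entry. Within ER entry, however, Tapdelta, Sec61alpha and Trp1, which had a peak, have 2 starts each. The autosomal ER entry genes without a peak have 1 each.

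For stress kinase and growth signalling 11 of 24 genes had a peak (median 128). The leading ones were puc (491), foxo, the forkhead factor of insulin signalling, with 144 (69.4 in replicate 4 and 76.1 in replicate 2), and hid, a cell death gene, with 141 (85.1 and 58.6). For bZIP factors 6 of 17 had a peak (median 193), led by Xbp1, REPTOR, a factor downstream of TOR signalling, with 325 (124 and 203), and crc. For RNA-binding proteins 8 of 24 had a peak (median 143), with Dp1, larp and Syp in front. Syp had 3 promoter peaks, of 494, 243 and 118. CrebA itself had none: the nearest optimal summit was 879 bp from any of its starts.

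For the list of chromatin and Polycomb genes 6 of 21 had a peak (median 173), led by Chro, Trl, the gene of the GAGA factor, with 321 (153 in replicate 4 and 144 in replicate 2), and Psc, a Polycomb repressor subunit, with 192 (87.3 and 102). The 6 include pnt, with 120, which is also counted in the list for stress kinase and growth signalling. The count is therefore not one of chromatin genes alone. The strongest peak at Trl held no GAGAG in its window, while that at Psc held 5, with overlapping copies each counted. For salivary gland genes 5 of 15 had a peak (median 98.1, against 112 for all promoter peaks), led by the glue protein gene Sgs5 with 115 (47.0 and 67.1), the homeotic gene Scr with 104 (53.5 and 56.5) and fkh, a forkhead factor gene, with 98.1 (44.0 and 52.8). For patterning factors 5 of 27 had a peak (median 101), led by Dll with 143, Scr and hb with 101, and in replicate 2 alone 3 had a peak.

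The remaining lists had 2 or 3 genes with a peak each. Of 16 translation factor genes 3 had one (eEF1alpha1 289, eIF4E1 134 and eEF2 84.2), of 15 immune genes 2 (imd 618 and the NF-kB factor gene Dif 112), of 18 cytosolic heat shock genes 2 (Hsp23 121 and Hsp67Ba 112), and of 20 cytoskeleton and adhesion genes 2 (the profilin gene chic 184 and the laminin gene LanB2 86.6). In the strongest peaks of replicate 2 alone 5 immune genes and 4 heat shock genes had a peak, and in those of replicate 4 alone 4 cytoskeleton and adhesion genes did. The imd and Dp1 peak of 618 is the same region, 33 bp upstream of a Dp1 start and 462 bp upstream of an alternative imd start. The peak 71 bp upstream of the 5′ end of imd had 238. ERp60 and eEF1alpha1 also share their peak. All 15 shares were above the 5.24% of all coding genes, but the lists were chosen with earlier results known and hold well-studied genes, and no list was tested.

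**Figure D5:**
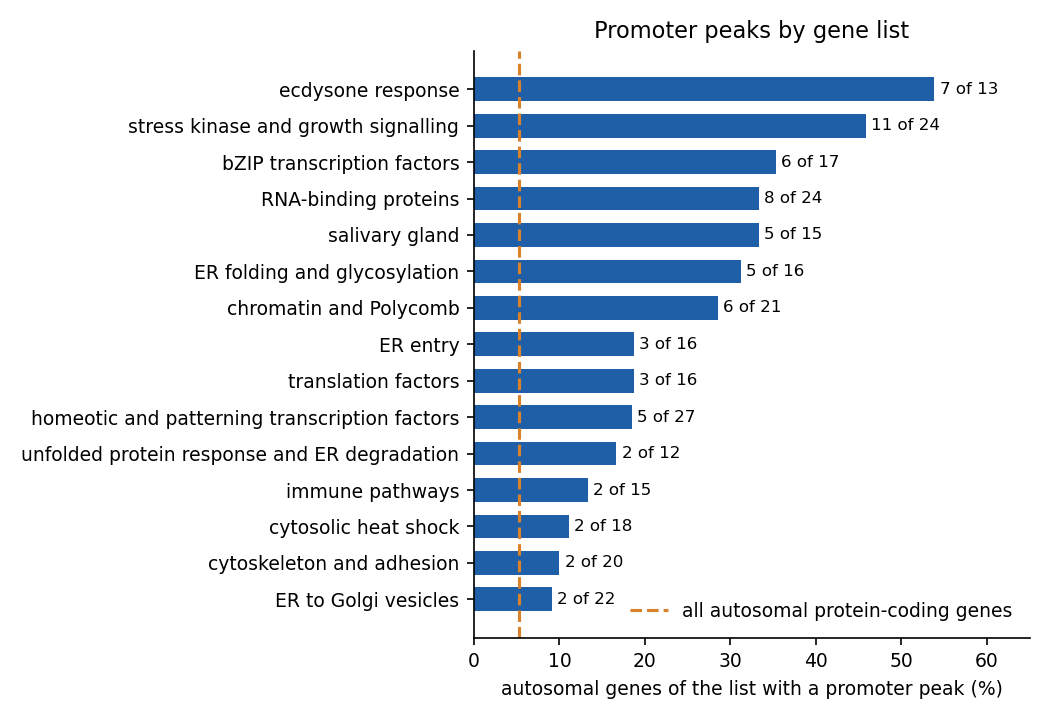
Share of the autosomal genes of each of 15 lists with a promoter peak (percent, horizontal axis, bars from 0), with the number of genes beside each bar and the share of all autosomal protein-coding genes, 5.24%, as a dashed line. The ecdysone response list reaches 7 of 13 and the list for ER to Golgi vesicles 2 of 22.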

How the data were processed

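Peak lists of 2 biological replicates of CrebA-eGFP ChIP-seq were used in dm6 coordinates. The deposited notes say that relaxed lists were made from each replicate's alignment and from both pooled, each with a control alignment, and that the optimal list was thresholded by the irreproducible discovery rate. No source used here names the aligner, the peak caller, their versions or the cutoff. The peak signal is the deposited narrowPeak value of the authors, with no stated scaling to depth, and summits are the deposited offsets. The control was not analysed here. Replicates come from separate biosamples per the labels.

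Starts, exons and gene classes came from Ensembl release 115 (BDGP6.54, dm6 coordinates) and sequence from the Release 6 RefSeq assembly. Peaks were classed as promoter, then exon, intron and intergenic. Tests were two-sided Fisher's exact tests (adjusted over 4 for matches and signal, over 42 for motifs) and exact McNemar tests (adjusted over 14), by Benjamini-Hochberg with a threshold of 0.05, in scipy 1.17.1 under Python 3.11.15. Wilson intervals cover counting error only, and neighbouring peaks are not independent. The code was tested on simulated data. Members, motifs and gene lists were chosen with earlier results of these data known. Of the listed names, 11 matched no gene, 8 matched as synonyms and 50 were not autosomal. Genes named are those of the 20 strongest peaks, the 3 strongest per arm, up to 3 per list, the 5 strongest without a replicate match, the 5 largest rank differences, and CrebA. The CACGTCA holders, genes with 4 peaks, leading tRNA genes and genes named for an absent or second peak or a second list were chosen after their values were seen. Alternatives tried were promoter distance, start sets, match rules, motif windows, flanks, the strongest 1119 peaks and each replicate alone.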

Additional observations from a re-analysis of the deposited data

How the results depend on the processing

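The share of autosomal peaks at promoters moved with its definition, to 32.1% with 250 bp, 54.7% with 1000 bp, 29.2% with gene 5′ ends and 35.7% with protein-coding genes only, and leaving out each replicate gave 43.1% to 44.2%. The strongest 1119 optimal peaks included 400 promoter peaks. The odds ratio of the replicate match against intergenic peaks no longer passed at 1.40 (250 bp and 1000 bp), 1.28 (matches within 100 bp), 1.20 (replicate lists of double length) and 1.47 (strongest 1119). The number of motifs above the flanks fell from 3 to 1 with windows of 50 bp and among the strongest 1119, and that of motif differences between classes from 8 to 4 in both. Among the strongest 1119 GAGAG against intronic peaks gave an odds ratio of 1.45 and did not pass. Chosen after seeing the data, the restriction to peaks whose nearest start is protein-coding brought the signal difference from intergenic peaks past the threshold (odds ratio 1.40, exact test, adjusted p = 0.0476), and keeping the strongest peak per 2000 bp lost the call for CACGTCA against introns (exact test, adjusted p = 0.088). The causes were not tested. The summit to flank ratio of GAGAG stayed past the threshold in every alternative run, between 1.83 and 2.35. Among single motifs and gene lists, 90 values kept their direction and call or stayed within 1.5 times, 17 lost a call and 11 counts moved by more. No paired analysis was possible because there is 1 group. Depth is unknown and limits the weaker peaks to an unknown extent.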
